A study of Mus musculus with 2 samples.

Results

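The 10 genes described here encode chaperones and co-chaperones of the lumen and membrane of the endoplasmic reticulum (ER): Hspa5, Hyou1, Hsp90b1, Calr, Canx, Dnajb9, Dnajb11, Dnajc3, Dnajc10 and Sdf2l1. They were chosen by gene name among the non-control spots of the arrays, and all 10 were found, next to 18181 gene names with an NM accession on the array. NIH3T3 cells, a mouse fibroblast line, were cultured with 10% serum, and the control cells were compared with cells kept in 10 µM thapsigargin for 3 h (stress). Thapsigargin blocks the pump that carries calcium into the ER. Lysates were separated on 10 to 40% sucrose gradients, and the RNA was pooled into polysome-bound RNA (P, labelled with Cy3) and free plus monosome RNA (FM, labelled with Cy5). The fractions were labelled in the proportions in which they yielded RNA, not from equal masses, so a shift of the whole RNA between them enters every log2 P/FM. Each condition had 1 two-colour array with RNA pooled from 3 preparations, and both arrays were on 1 slide. No difference between the conditions has a replicate check and no test was possible, so the spread between probes of a gene is given instead. That spread holds array error and differences between the places the probes read, but no variation between cultures.

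Proteins that enter the ER are folded there by several chaperone systems. HSPA5 (BiP), the Hsp70 of the lumen, binds exposed hydrophobic stretches under the control of J proteins, which deliver substrates and stimulate its ATPase, and of nucleotide exchange factors such as HYOU1. HSP90B1 (GRP94) is the Hsp90 of the lumen, and calreticulin and calnexin are lectins that hold glycoproteins through their trimmed glycans. When unfolded proteins accumulate, the unfolded protein response (UPR) slows translation initiation through the kinase PERK and raises the transcription of many chaperone genes through ATF6 and XBP1. In this setting 2 readouts are of interest for a chaperone mRNA, namely its amount and the share of it that sits on polysomes.

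The promoters of these genes are known for the ER stress response element (ERSE), which reads CCAAT, 9 bases and CCACG. The element was searched on both strands from 250 bases before to 50 bases after each RefSeq start (GRCm38.p6), in 9 of the 10 members and 27025 genes in all. It was found in 5 members, Hspa5, Hsp90b1, Calr, Canx and Dnajc3, and in 37 genes in all (0.137%). The matches are shown because these are the members whose control region carries the classical UPR motif. They are written 5′ to 3′ on the strand of the gene with 5 flanking bases on each side, and capitals mark the motif, or its reverse complement where the match is on the other strand.
Hspa5 (chr2:34772020-34772048, plus-strand gene, bases -65 to -47): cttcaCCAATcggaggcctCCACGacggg
Hsp90b1 (chr10:86705633-86705661, minus-strand gene, bases -212 to -194): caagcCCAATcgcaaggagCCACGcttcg
Hsp90b1 (chr10:86705528-86705556, bases -107 to -89, other strand): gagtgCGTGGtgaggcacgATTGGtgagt
Calr (chr8:84847070-84847098, minus-strand gene, bases -162 to -144, other strand): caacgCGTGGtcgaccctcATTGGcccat
Canx (chr11:50325795-50325823, minus-strand gene, bases -145 to -127): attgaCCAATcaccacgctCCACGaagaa
Dnajc3 (chr14:118937822-118937850, plus-strand gene, bases -105 to -87): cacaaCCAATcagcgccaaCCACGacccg

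The second form of the element (ERSE-II, ATTGG, 1 base, CCACG) was found in Dnajb11 and in 12 genes in all (0.0444%), just downstream of the start. Its letters overlap those of the first form, since ATTGG is the reverse complement of CCAAT. The UPR element TGACGTGG was found in none of the 9 members and in 193 genes (0.714%). These are matches of letters and not measured binding sites.
Dnajb11 (chr16:22857847-22857867, plus-strand gene, bases 7 to 17): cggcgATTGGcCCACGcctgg

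The 10 genes were read by 23 probes of 1 spot each, and none of these spots was saturated or marked as an outlier. In 21 probes both channels were well above background on both arrays, the exceptions being 1 probe of Hyou1 and 1 of Dnajb9. All 10 genes had A above 4.5 on both arrays, A being the mean of the log2 P and log2 FM signals and the study's measure of relative mRNA amount. Genes were compared with 9430 gene names that have an NM accession and passed that limit. Dnajb11 is outside this set because its 1 probe carries an Ensembl accession. The fibroblast label was met by the arrays, since 8 of 8 fibroblast markers (Col1a1, Vim and others) were above the limit against 1 of 8 markers of other cell types, Cd3e, with A of 5.02 and 4.74. Among probes printed 8 to 10 times, the change of log2 P/FM between the arrays had a median SD of 0.0999 between spots, and among genes with 2 or more probes it had a median SD of 0.358 between probes.

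Under stress all 10 chaperone genes had more signal in both fractions in the values given here. The difference in P of Dnajc10 was small and turned with the processing. In FM the sign turned for Hspa5 with the processed signals of the scanner software. It also turned for Hyou1, Dnajb9 and, barely, Dnajc10 with normexp background correction. In FM the signal was higher by 1.03 to 3.27 on the log2 scale, and 10 of 10 passed a rise of 1 against 29.3% of all genes. With centring on all genes, loess, the processed signals or scaling to the spike-in probes, Hspa5, Hyou1, Calr, Canx and Dnajc10 did not pass it in FM. Normexp left Hyou1, Canx, Dnajb9, Dnajc3 and Dnajc10 below it, and no background subtraction left Hyou1 and Dnajc10 below it. The share of all genes in FM was not counted under any of these settings. In P the signal was higher by 0.12 to 2.78, and 5 of 10 passed a rise of 1 against 13.7% of all genes. A rose by 1 or more in 8 of 10 members against 8.97% of all genes, and fell by 1 or more in 0 of 10 against 1.02%. The exceptions were Hyou1, higher by 0.84, and Dnajc10, higher by 0.61. The count was 4 of 10 with centring (2.76% of all genes), normexp (1.13%) or the processed signals of the scanner software (3.65%), and 9 of 10 with only probes well above background (12.3%). The median change in A was 1.30 for the members and 0.30 for all genes. A weighs both fractions alike on the log2 scale and is not the log2 of their summed signals. That sum rose less than A for Sdf2l1 (1.77 against 2.13), Dnajc3 (1.13 against 1.36) and Dnajb11 (1.04 against 1.20). It rose more for Hspa5 (2.32 against 1.96) and Dnajc10 (0.71 against 0.61). By the sum, 8 of 10 rose by 1 or more against 8.81% of all genes. Arrays of bulk RNA cannot tell fewer cells from less RNA per cell, and the signal is relative to the RNA that was labelled. The direction in A held for every member measured with the other background corrections and scalings tried except normexp background correction, under which A was lower for Hyou1, Dnajb9 and Dnajc10 and the median of all genes moved to -0.68. In log2 P the change of Dnajc10 was -0.11 with the processed signals and -0.54 with normexp, and that of Hyou1 was -0.32 with normexp. Relative to that median all 10 stayed above.

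**Figure D1:**
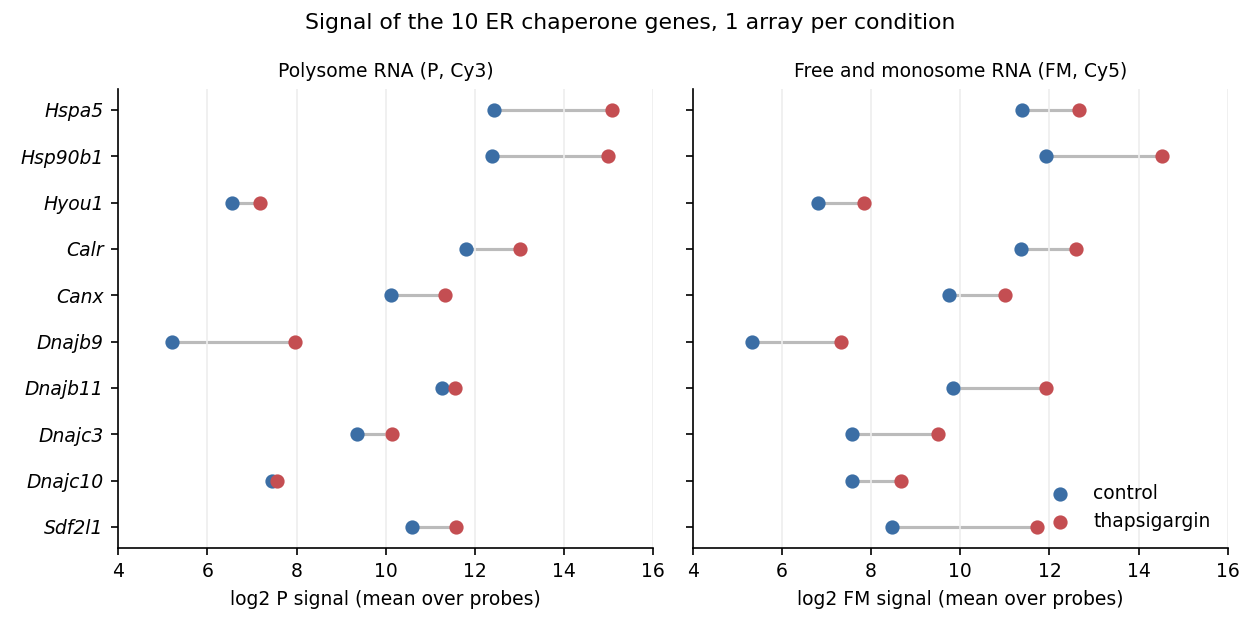
Log2 signal of each of the 10 genes (mean over its probes) in polysome RNA (P, left) and in free and monosome RNA (FM, right), with 1 array per condition. Every red point (thapsigargin) lies to the right of the blue point (control), by 0.12 to 2.78 in P and by 1.03 to 3.27 in FM.

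The members differed in the ratio of the fractions. The median log2 P/FM of all genes was 0.26 in control cells and -0.37 under stress, with a median change of -0.69. The members had medians of 0.45 and 0.37 and a median change of -0.22. The change ran from 1.36 for Hspa5 down to -2.28 for Sdf2l1. Hspa5, Dnajb9, Hsp90b1, Calr, Canx and Hyou1 lay above the median change of all genes, and Dnajc10, Dnajc3, Dnajb11 and Sdf2l1 lay below it. By definition a median splits all genes evenly, so 6 of 10 is near the share of all genes. Relative to the median, Dnajc10 lay at -0.30 and Dnajc3 at -0.47, less than the SD between their own probes (0.47 and 1.07). Hyou1 lay at 0.30, under the median SD of 0.358 between probes of a gene. The members above the median were the same under 10 of 10 alternatives chosen in advance that do not shift all genes alike, 1 of which (only probes on NM accessions) leaves out Dnajb11. These alternatives overlap. Keeping outlier spots left every member at its value, and the processed signals and log ratio of the scanner software gave the members the same changes. The members above the median were not the same with the probe nearest the 3′ end only, where Dnajc3 and Dnajc10 were above it too. The level of the change itself depended on the scaling, since centring and the spike-in scaling moved every member upwards, and loess and the dye normalization of the scanner software moved all but Dnajb9 upwards. Only Hspa5 and Dnajb9 were higher in log2 P/FM under stress (2 of 10, 29.3% of all genes), but 6 of 10 were higher after centring on all genes, loess, normexp or the dye normalization of the scanner software. With no background subtraction 4 were higher, and with scaling to the 10 spike-in probes, whose own ratio moved by -2.44 between the arrays, 10 of 10 were. The share of all genes that were higher was not counted under these settings, but all genes moved as well. Their median change was -0.06 with centring, -0.12 with loess, -0.04 with normexp and -0.21 with the processed signals. It was -0.48 with no background subtraction and 1.75 with the spike-in scaling.

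**Figure D2:**
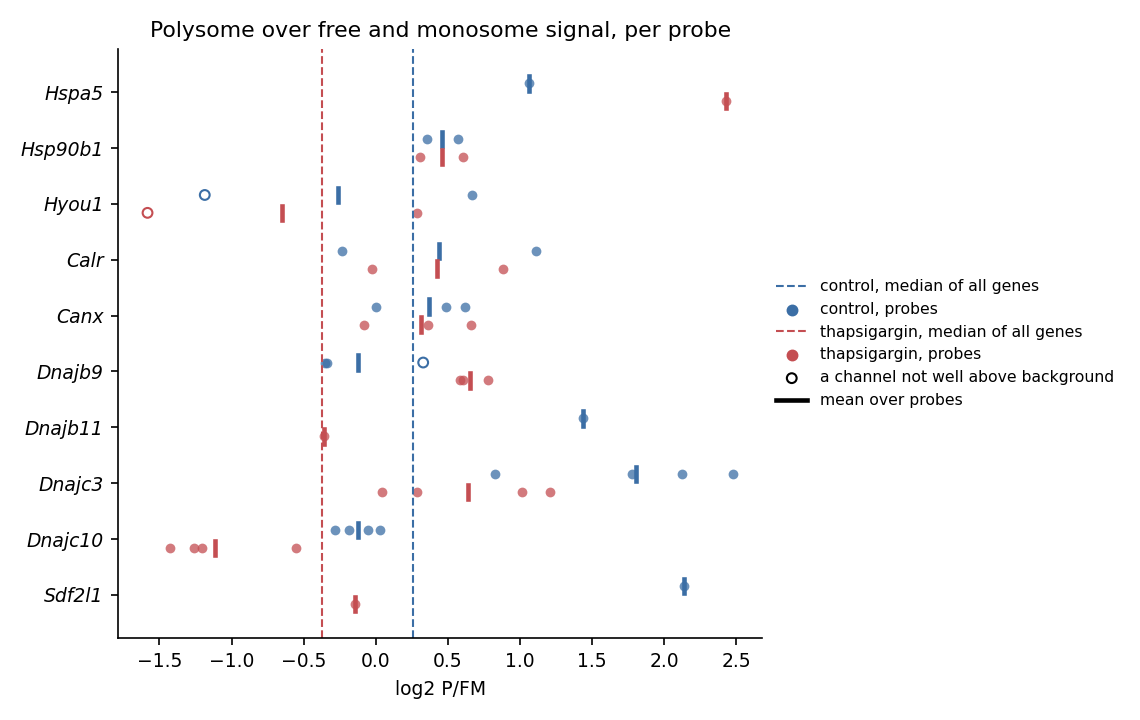
Log2 P/FM of every probe of the 10 genes on the control array (blue) and the thapsigargin array (red), with the mean over probes as a bar and the median of all genes as a dashed line (0.26 and -0.37). Hspa5 and Dnajb9 sit further right under stress, Hsp90b1, Calr and Canx overlap, and Sdf2l1, Dnajb11, Dnajc3 and Dnajc10 sit further left.

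Hspa5, the gene of BiP, was read by 1 probe on NM_022310 (mm9 chr2:34631630-34631689). Its log2 P signal was 12.44 in control and 15.08 under stress, and its log2 FM signal was 11.37 and 12.65. The polysome signal was thus 6.24-fold and the FM signal 2.43-fold that of control cells. With the processed signals FM was lower than in control, since A changed by 1.51 and log2 P/FM by 3.51. Log2 P/FM was already above the median of all genes in control cells at 1.06 and reached 2.43 under stress, a value higher than in 99.97% of all genes. The change of 1.36 was higher than in 94.4% of genes and had the same sign under all alternatives, from 1.36 to 3.80. With A up by 1.96, Hspa5 was the member with the largest rise in polysome association. It was also the only member that met the resistant criterion, which asks that log2 P/FM reach at least 0.8 in control and stress alike and which 2.58% of all genes met. The middle 30 bases of its probe, which holds stop codons in all 3 frames and so is not wholly coding, are given because this single oligo carries the Hspa5 result.
Hspa5 probe, bases 16 to 45: tgctagagctgtaatattgtaaatactgga

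Hyou1, an Hsp110-type exchange factor of BiP, was read by 2 probes that differed widely in signal. The probe on NM_021395 (chr9:44200367-44200426) gave log2 P of 9.36 in control and 10.65 under stress, and log2 FM of 8.69 and 10.36. Its log2 P/FM went from 0.67 to 0.29, a change of -0.38, and its A was higher by 1.48. The other probe, on BC019785 (chr9:44193855-44193914), was not well above background in P on either array, with log2 P of 3.73 on both. The gene values of Hyou1 used here, a change of -0.39 in log2 P/FM and of 0.84 in A, average both probes and so include this dim one. Leaving it out brought Hyou1 to a rise of 1.48 in A, past the fold.

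Hsp90b1, the gene of GRP94, showed the largest rise in A of the members, 2.58, higher than in 99.7% of all genes. Its log2 P signal was 12.39 in control and 14.97 under stress, and log2 FM was 11.93 and 14.52. The rise was of the same size in both fractions, 5.99-fold in P and 6.01-fold in FM, so that log2 P/FM stayed at 0.46 on both arrays. The probes gave changes of -0.04 and 0.03, an SD of 0.05 (n = 2 probes). Among 107 genes of like A, within 0.5 of its mean A, the median change in log2 P/FM was -1.99. With loess and with the dye normalization of the scanner software the change was 2.04 and 2.38.

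The lectin chaperones Calr (calreticulin, soluble) and Canx (calnexin, membrane-bound) changed almost alike. For Calr, log2 P was 11.81 in control and 13.02 under stress and log2 FM was 11.37 and 12.59, with 2 probes on NM_007591. For Canx, log2 P was 10.11 and 11.32 and log2 FM was 9.74 and 11.01, with 3 probes on NM_007597. Both fractions of both genes rose by 2.31-fold to 2.40-fold. Log2 P/FM of Calr was 0.44 and 0.43, a change of -0.01 with an SD between probes of 0.31, and that of Canx was 0.37 and 0.31, a change of -0.06 with an SD of 0.47. Neither change exceeds the spread of its probes, but with loess they were 1.58 (Calr) and 1.15 (Canx), with the processed signals 1.45 and 1.12, and with centring 0.62 and 0.58. Genes of like A had median changes of -1.68 (242 genes, around Calr) and -1.53 (662 genes, around Canx).

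The 4 J proteins fell on both sides. Dnajb9 (ERdj4) takes part in ER-associated degradation and in holding the stress sensor IRE1 inactive. Its log2 P was 5.20 in control and 7.97 under stress and its log2 FM was 5.32 and 7.32, with 3 probes on NM_013760. The polysome signal was 6.85-fold that of control, the largest fold in P of the members, but its A in control was 5.26, against a highest A of 4.35 among 153 negative control spots, and with normexp background correction the change in log2 P was 0.44 in place of 2.78. Log2 P/FM moved from -0.12 to 0.66, a change of 0.78. In the first probe FM was not well above background in control, so that its ratio and change, 0.28, are only limits, and the gene value that includes it is not exact. The other probes gave 0.93 and 1.13, with a mean of 1.03. The inducible criterion, log2 P/FM at or below 0 in control and a rise of 1 or more, was met by 0 of the 10 members (8.58% of all genes), and with probes well above background only, Dnajb9 met it.

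Dnajb11 (ERdj3), a soluble J protein that binds substrates and passes them to BiP, showed the opposite pattern. Its single probe (ENSMUST00000004574, chr16:22872067-22872126) gave log2 P of 11.26 in control and 11.56 under stress and log2 FM of 9.83 and 11.92. Polysome signal was thus 1.23-fold and FM signal 4.27-fold that of control. Log2 P/FM went from 1.43 to -0.36, a change of -1.79, while A rose by 1.20. Among 507 genes of like A the median change in log2 P/FM was -1.68, so the fall of Dnajb11 was close to theirs.

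Dnajc3 (p58IPK), a J protein of the lumen also described as an inhibitor of PERK, gave log2 P of 9.37 in control and 10.14 under stress and log2 FM of 7.57 and 9.50. Polysome signal was 1.71-fold and FM signal 3.83-fold that of control. Its log2 P/FM went from 1.80, higher than in 94.9% of genes, to 0.64, a change of -1.16. The SD between its 4 probes on NM_008929 was 1.07, the widest of the members. Among 1071 genes of like A the median change in log2 P/FM was -1.06, close to that of Dnajc3.

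Dnajc10 (ERdj5), a J protein with thioredoxin domains that reduces disulfides of misfolded proteins, changed least in amount. Log2 P was 7.45 in control and 7.56 under stress and log2 FM was 7.57 and 8.68, over 4 probes on NM_024181. Polysome signal was 1.09-fold and FM signal 2.15-fold. Log2 P/FM went from -0.12 to -1.11, the lowest stress value among the members, a change of -0.99 with an SD of 0.47 between probes.

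Sdf2l1, a partner of Dnajb11 that keeps BiP clients from aggregating, had the highest log2 P/FM of the members in control cells and the largest fall. Its probe on NM_022324 (chr16:17130426-17130485) gave log2 P of 10.60 in control and 11.58 under stress and log2 FM of 8.46 and 11.73. The FM signal rose 9.64-fold, the largest fold of any member in either fraction, against 1.98-fold in P. Log2 P/FM went from 2.14, higher than in 98.0% of genes, to -0.14, and the change of -2.28 was lower than in all but 8.05% of genes. A rose by 2.13 in the same mRNA. Its middle 30 bases are shown as the oligo behind the widest shift.
Sdf2l1 probe, bases 16 to 45: aaccctggggaagatctgaaggtgccagcc

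The sensitive criterion, a change in log2 P/FM of -0.8 or lower, was met by Dnajb11, Dnajc3, Dnajc10 and Sdf2l1, which is 4 of 10 against 46.4% of all genes. With other scalings both shares fell, to 2 of 10 against 26.3% with centring and 24.0% with normexp, to 1 of 10 against 25.8% with loess and 30.9% with processed signals, and to 0 of 10 against 0.817% with the spike-in scaling. In none of these did the members exceed the share of all genes. All 4 were sensitive while their A was higher by 0.61 to 2.13, and P was higher by 0.30 to 0.99 in all but Dnajc10, whose change of 0.12 turned with the processing. Among genes of like A, 6 of 10 members lay above the median change in log2 P/FM, and 10 of 10 above the median change in A. Hyou1 (-0.39 against a like-A median of -0.46), Dnajb11 (-1.79 against -1.68) and Dnajc3 (-1.16 against -1.06) lay close to it in log2 P/FM. For Dnajc10 the like-A median was -0.65 and for Sdf2l1 -1.53. It was -1.70 for Hspa5 and -0.30 for Dnajb9.

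**Figure D3:**
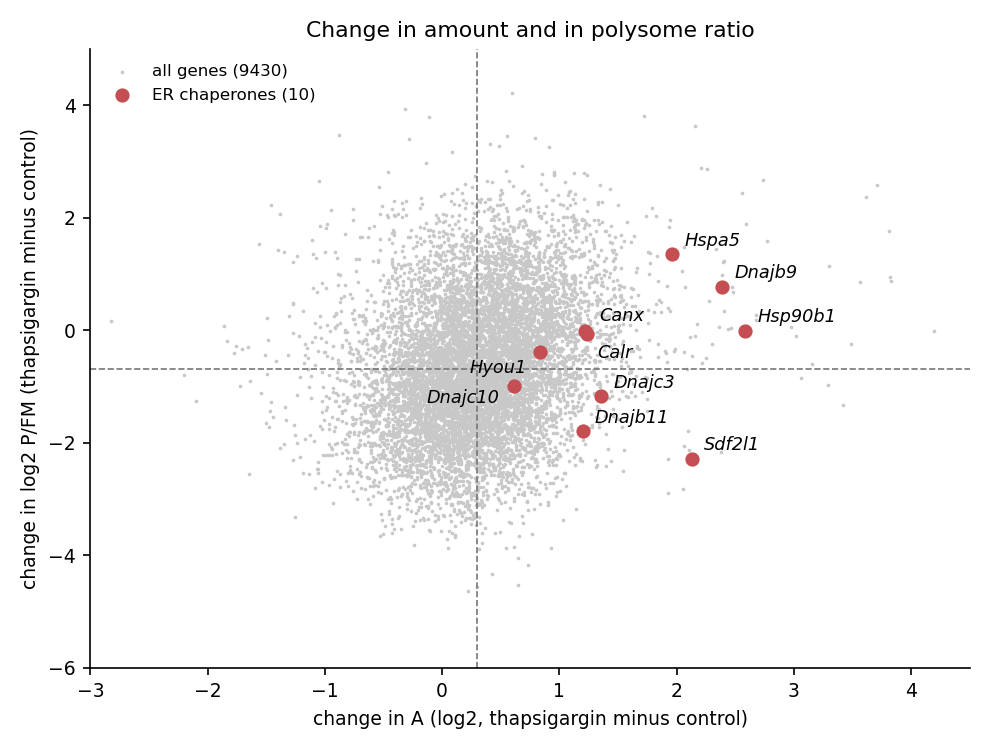
Change in log2 P/FM against change in A for 9430 genes (grey, 2 of them outside the axes) and the 10 ER chaperone genes (red), thapsigargin minus control, with dashed lines at the medians of all genes (-0.69 and 0.30). The red points all lie right of the vertical line, and they spread from Hspa5 at 1.36 to Sdf2l1 at -2.28 on the vertical axis.

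The members with an ERSE in the promoter lay on both sides of the median change in log2 P/FM. Hspa5, Hsp90b1, Calr and Canx kept or raised log2 P/FM, and Dnajc3 did not. Their median change was 1.36 in A (5 of 5 with a rise of 1 or more) and -0.01 in log2 P/FM. The members without a match to this first form, or with no promoter searched, had medians of 1.20 (3 of 5) and -0.99. They include Dnajb11, which has the ERSE-II match, so they are not a set without UPR motifs. Of the 32 other genes with the motif 18 were on the array and 6 passed the limit on A. They were Alg12, Creld2, Hnrnpa3, Pdia6, Syvn1 and Zfp57, and 4 of the 6 rose by 1 or more in A against 8.97% of all genes. Their median change in log2 P/FM was -0.81, from -2.90 for Creld2 to 1.03 for Zfp57, and 2 of the 6 were higher under stress. With so few genes this is a description only.

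Where a gene had several probes, the change in log2 P/FM depended on where the probe lay. The pattern was chosen after the values were seen. In 6 of 6 members with 2 or more probes well above background, the change was higher in the probe nearest the 3′ end than in the one nearest the 5′ end, by a median of 0.68. Among all 3388 genes with such probes this held for 67.0%, with a median difference of 0.28. In Dnajc10 the changes from 5′ to 3′ were -1.46, -1.20, -0.92 and -0.37. In Canx they were -0.57, 0.05 and 0.36, and in Calr -0.23 and 0.21. In Hsp90b1 and Dnajb9 the difference was 0.08 and 0.20, under the median SD of 0.358 between probes. In control cells the 3′ probe had the higher log2 P/FM in 1 of 6 members, and under stress in 5 of 6, while in all genes the shares were 33.1% and 55.3%.

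Dnajc3 was the extreme case. Its probes 1, 2 and 3 fell by 1.46, 1.49 and 2.09, and only the last one was higher, by 0.38. The first 3 probes had log2 P/FM of 2.47, 1.77 and 2.13 in control and of 1.01, 0.28 and 0.04 under stress. The last probe, at chr14:119378131-119378190, had 0.83 and 1.21. The sensitive result for Dnajc3 therefore rests on the first 3 probes, and with the 3′ probe alone Dnajc3 and Dnajc10 both moved above the median change of all genes and 2 members in place of 4 met the criterion. The middle 30 bases of the 4 probes are given in order from 5′ to 3′. Probes 1 and 2 cover more than 60 genomic bases and so cross an exon junction.
Dnajc3 probe 1 (mm9 chr14:119370014-119371633): acagatgcaaccagcaaatatgaatcagtc
Dnajc3 probe 2 (mm9 chr14:119374485-119375989): caagaaatcattaaagcataccgaaagtta
Dnajc3 probe 3 (mm9 chr14:119377251-119377310): gatgatggagaagatcctcttgatgcagag
Dnajc3 probe 4 (mm9 chr14:119378131-119378190): agttgtttggtcgaaattccctgtcacaaa

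**Figure D4:**
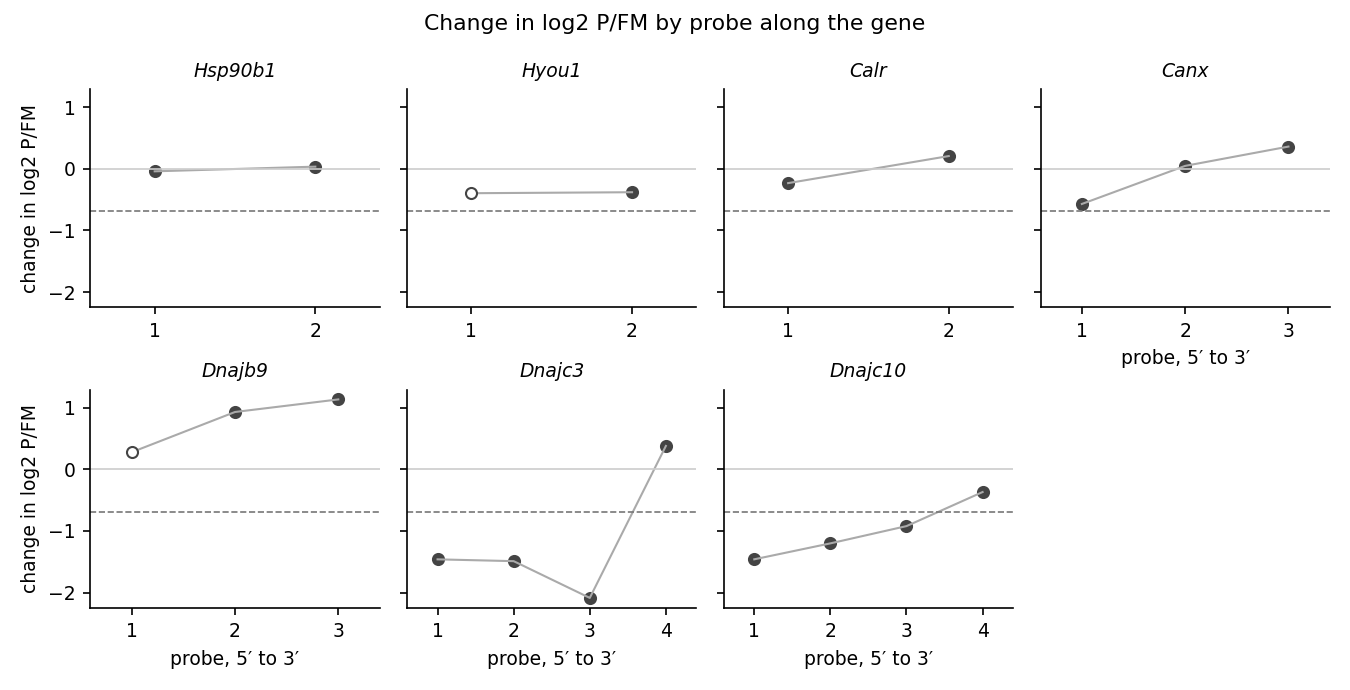
Change in log2 P/FM (thapsigargin minus control) of each probe, ordered from 5′ to 3′, for the 7 members with over 1 probe. Open circles mark a probe with a channel not well above background, and the dashed line is the median of all genes (-0.69). The last probe is above the first in each panel, most of all in Dnajc3 (-1.46 to 0.38).

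Other genes of ER folding were read in the same way. Of 15 disulfide and prolyl isomerases, oxidases and collagen chaperones on the array, 14 passed the limit on A. They work beside the members in the lumen, and 13 of the 14 were sensitive, with a median change in log2 P/FM of -2.06 against -0.22 for the chaperones. The lowest was Creld2 at -2.90 and the highest was Ero1l at -0.19. The median change in A was 0.88, and 6 of 14 rose by 1 or more, from Txndc5 at -0.29 to Creld2 at 1.92. Sdf2l1 and Dnajb11 thus had changes within the range of the isomerases, and Hspa5, Dnajb9, Hsp90b1, Calr and Canx lay above all 14 of them. Calr and Canx lay above Ero1l by less than the SD between their probes (0.31 and 0.47). Their 5′ probes, at -0.23 and -0.57, lay below Ero1l. Under loess 4 of 14 isomerases were above the median change of all genes, against 1 of 14 in the values given here.

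Among other BiP cofactors and lectin-cycle genes 6 of 8 passed the limit on A, with a median change in log2 P/FM of 0.24 and 2 sensitive genes. The exchange factor Sil1 had the lowest change at -2.85 and Hspa13 the highest at 0.71. Hspa13 was dim, with A of 4.85 in control, and not all of its probes were well above background. In A the median change of these cofactors and lectin-cycle genes was 0.86, from 0.14 for Sdf2 to 1.05 for Dnajc1.

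Chaperones of the same families in the cytosol and mitochondria gave a median change of -1.09 in log2 P/FM and 0.66 in A (20 of 22 above the limit). Of these, 13 were sensitive and 2 were higher under stress. The lowest was Dnajc8 at -2.40 and the highest Hsph1, an Hsp110 of the cytosol, at 0.65. In A they ranged from Dnajb4 at -0.36 to Hspa14 at 1.44, and 6 of 20 rose by 1 or more.

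The regulators of the UPR and the genes of ER-associated degradation were read last. Of the regulators 7 of 8 passed the limit, with median changes of 0.52 in log2 P/FM and 0.79 in A. Atf4, the factor translated when initiation is limited, had the highest change in log2 P/FM at 3.42, Mbtps1 the lowest at -0.76, and Ddit3 (CHOP) the highest change in A at 3.71. Mbtps1 was lowest in A as well, at -0.27. Of the degradation genes 8 of 9 passed, with median changes of -0.07 and 0.90. Sel1l, the adaptor of the ubiquitin ligase Syvn1, was highest in log2 P/FM at 1.51, while Herpud1 rose most in A at 4.19 and Os9 least at 0.55. The signal of Sel1l was low, with A of 4.93 in control, and not all of its probes were well above background.

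**Figure D5:**
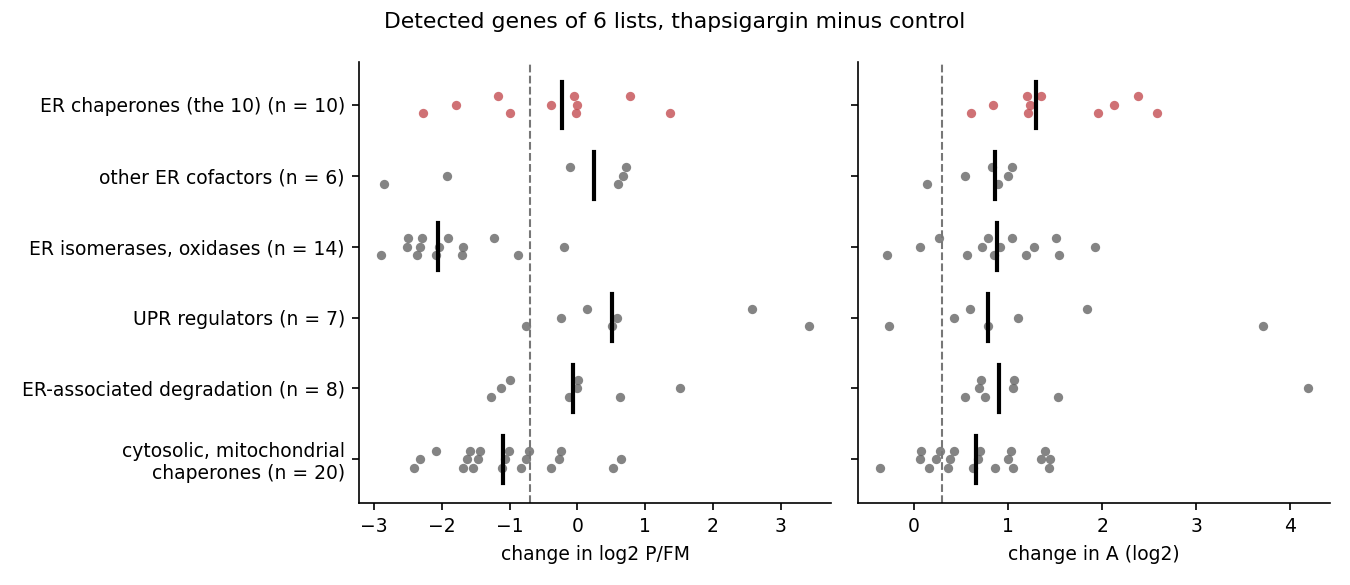
Change in log2 P/FM (left) and in A (right), thapsigargin minus control, for the detected genes of 6 lists, each point a gene and each bar the median of its list. The dashed lines are the medians of all genes (-0.69 and 0.30). The isomerases lie furthest left in the ratio (median -2.06), and the ER chaperones have the highest median in A (1.30).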

How the data were processed

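NIH3T3 cells grown on 4 plates gave P and FM RNA, labelled together from 300 ng per array. Per the file headers, intensity values of spots and of their local background came from Feature Extraction 10.7.1.1 without normalization, and the deposited files also hold dye-normalized intensity values, a log10 ratio and flags of 0 or 1 (other). The authors made a table of log2 P/FM values for 11483 accessions, used as an alternative.

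Here each mean signal was reduced by its median local background, values under 0.5 were set to 0.5 (limma 3.58.1, R 4.3.3), and no normalization was applied, as in the study's methods. Outlier spots (295 of 43379, 0.680%) were left out, and spots, then probes of a gene name, were averaged. A channel that is not well above background gives only a bound. Changes are stress minus control. Of the spots, 42.5% (P) and 46.3% (FM) were well above background in control and 44.6% and 45.4% under stress. The number of arrays limits the precision, and with 1 array per group no test was made. The averaging and the changes were checked on control signals with known shifts and noise added. That check does not cover background correction, dye effects or scaling. All 10 members are named with every probe, and of other lists the highest and lowest genes, 1 of which is not reported here. Members and lists were chosen with earlier results of these data known. Probe positions are on mm9, per the file headers, and promoters are from RefSeq (GRCm38.p6). Protein sequences were not used here. Alternatives were other background corrections, signals, scalings, filters and probe rules.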

Additional observations from a re-analysis of the deposited data

How the results depend on the processing

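With 1 array per condition, no array could be left out, and the number of arrays and the signal over background limit every value. No paired analysis was possible because each group has 1 array. The same 6 members lay above the median change in log2 P/FM of all genes under 10 of 10 alternatives chosen in advance, not counting centring and the spike-in scaling, which shift all genes alike and cannot change this. All of these reuse the same arrays, and 6 of 10 is near the even split that a median gives. With the 3′ probe only, Dnajc3 and Dnajc10 were above the median too. The members' median exceeded that of all genes by 0.08 (normexp) to 0.70 (only probes on NM accessions, without Dnajb11). In A, every member measured lay above the median of all genes under 9 of 9 alternatives chosen in advance. These leave out both shifts and loess, which keeps A. The members' median in A exceeded that of all genes by 0.92 to 1.64. In both counts, keeping outlier spots left every member at its value, since no member spot was flagged. For log2 P/FM, the processed signals and the log ratio gave the members the same changes. The levels themselves moved, and the cause was not tested. The median change in log2 P/FM of the members turned from -0.22 to 0.41 with centring on all genes, 0.43 with loess, 0.44 with both the processed signals and the log ratio that the scanner software gives, 0.040 with normexp (offset 50) and 2.22 with scaling to the spike-in probes. Alternatives chosen after seeing the data used only the probe nearest 1 end of the gene, and the 3′ probe gave 0.12. The members' median change in A was 0.92 with centring, 0.96 with normexp, 0.90 with processed signals, 1.59 with the spike-in scaling and 1.49 with the 5′ probe, against 1.30, and members with a rise of 1 or more in A numbered 4 with centring, normexp or processed signals, against 8. Members higher in log2 P/FM numbered 6 with centring, loess, the log ratio, normexp, processed signals or the 3′ probe, 4 with no background subtraction and 10 with the spike-in scaling, against 2. The inducible criterion was met by 1 member with centring, normexp, probes well above background only or the 3′ probe, and by 3 with loess, the log ratio, processed signals or the spike-in scaling, against 0. The resistant criterion was met by 2 members with centring or the 3′ probe, 3 with the 5′ probe and 4 with the spike-in scaling, against 1. For members higher in log2 P/FM, inducible or resistant, the share of all genes was not counted under these settings, so these counts are not set against it. The sensitive criterion was met by 2 members with centring, normexp or the 3′ probe, 1 with loess, the log ratio or processed signals and 0 with the spike-in scaling, against 4. Among single members, the spike-in scaling turned the change in log2 P/FM of Dnajb11 to 0.65, of Dnajc10 to 1.46, of Dnajc3 to 1.28 and of Sdf2l1 to 0.16, the 3′ probe turned that of Dnajc3 to 0.38, and normexp turned the change in A of Dnajb9 to -0.074, of Hyou1 to -0.34 and of Dnajc10 to -0.28. The change in log2 P/FM of Hyou1 turned to 0.24 with centring, 0.22 with loess, 0.36 with processed signals and 2.05 with the spike-in scaling, and those of Hsp90b1, Calr and Canx, near 0, became 2.44, 2.43 and 2.39 with the spike-in scaling.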
